A study of Mus musculus with 6 samples.

Results

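Mitochondrial ribosomal protein genes were followed across 6 RNA-seq libraries from the mouse embryonic stem cell line E14tg2a. The members were all rows of the expression table whose symbol begins with Mrpl or Mrps followed by a digit, which gave 76 of 12331 genes, 47 with Mrpl and 29 with Mrps symbols. All 6 libraries began with 10 pg of total RNA from cells kept in serum medium with the cytokine LIF. Oligo(dT) priming, tailing and 20 PCR cycles turned the RNA into cDNA. In 3 libraries the cDNA was broken by sonication before adaptors were ligated, and in 3 it was cut and tagged by hyperactive Tn5 transposase (tagmentation). No treatment, genotype or time point differed between the groups. The protocol describes total RNA prepared with a kit and used at the amount of a single cell, although a label calls it a lysate of a single cell. The libraries therefore do not show which cells held a transcript, and fewer cells with it cannot be told apart from less of it per cell. Both methods carry the replicate numbers 1 to 3, and the replicates are technical, so a p-value here speaks only of the spread among these 6 libraries. Values are listed in the order of numbers 1 to 3, sonication first.

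The mitochondrial ribosome makes the few proteins that the mitochondrial genome encodes, all of them subunits of the respiratory chain and ATP synthase. Its RNAs come from the mitochondrial genome, while all its proteins are encoded in the nucleus, made in the cytosol and imported. The Mrpl genes encode proteins of the large subunit, which joins amino acids. The Mrps genes encode proteins of the small subunit, which reads the message, with exceptions such as Mrps30 and Mrps18a, whose products sit in the large subunit, and Mrps36, whose product belongs to the oxoglutarate dehydrogenase complex. Some members descend from bacterial ribosomal proteins and others exist only in mitochondria.

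The members lie on 17 chromosomes in the RefSeq annotation of GRCm38.p6, with at most 10 on the same one, chromosome 11. Promoters are shown because they are a feature that the choice by symbol did not use. The libraries do not measure promoter activity. Of 67 members with a RefSeq promoter, 17 (25.4%) held CCGGAAG, the core letters bound by ETS factors such as GABP, in the 250 bases before a start site, on either strand. The share was 18.9% over the 4502 tested genes with a promoter and 7.83% over all 27025 genes with one. The motif of NRF1, a factor of many mitochondrial genes, stood in 9 members (13.4%, against 11.1% of the tested genes and 4.23% of all genes). The YY1 letters AANATGGCG stood in 2 members (2.99%, against 3.40% and 1.29%). Most of the 67 members held none of these motifs, among them Mrps14, which was also called between methods below. The motifs searched do not overlap in the sequences below. These are the windows of Mrpl34 and Mrpl30, the members with the highest mean levels, and of Mrpl36, a member called between methods below, 5′ to 3′ on the gene's strand, with the matched letters in capitals.
Mrpl34, chr8:71464676-71464925, plus strand: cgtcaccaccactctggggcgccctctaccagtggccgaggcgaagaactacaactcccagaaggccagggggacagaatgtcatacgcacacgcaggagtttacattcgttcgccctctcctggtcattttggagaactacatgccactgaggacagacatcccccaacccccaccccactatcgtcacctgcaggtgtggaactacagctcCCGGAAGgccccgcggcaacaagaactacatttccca
Mrpl30, chr1:37890227-37890476, plus strand: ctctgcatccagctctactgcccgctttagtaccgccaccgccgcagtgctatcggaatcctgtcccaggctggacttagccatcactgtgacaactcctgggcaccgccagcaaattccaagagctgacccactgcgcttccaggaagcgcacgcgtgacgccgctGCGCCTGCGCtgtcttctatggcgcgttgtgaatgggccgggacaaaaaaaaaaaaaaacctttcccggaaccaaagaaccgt
Mrpl36, chr13:73330759-73331008, plus strand: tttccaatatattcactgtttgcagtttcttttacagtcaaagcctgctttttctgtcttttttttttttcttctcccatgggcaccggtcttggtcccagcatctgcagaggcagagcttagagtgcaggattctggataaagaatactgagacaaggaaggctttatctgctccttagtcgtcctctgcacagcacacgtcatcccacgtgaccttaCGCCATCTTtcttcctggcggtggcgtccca

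Nearly the whole family was found in every library. Levels are given as RPKM, reads divided by gene length and by the alignments of the library. After sonication 73, 76 and 71 of the 76 members reached 1 RPKM, and after tagmentation 73, 74 and 69 did. This was 73.3 ± 2.52 against 72.0 ± 2.65 (SD, n = 3), a difference smaller than either SD. The p was 0.7 in an exact permutation test, two-sided, which cannot go below 0.1 with 3 against 3. That test leaves out the replicate numbers, so its spread includes the difference between numbers. Within numbers the count was equal in number 1 and lower after tagmentation in numbers 2 and 3. The p therefore does not show that the methods found members equally well. Of all genes in the table, 44.0% to 55.2% reached 1 RPKM in a library, and this share was lower after tagmentation in each number. The members together made up 1.21% ± 0.0546 of the summed RPKM after sonication and 1.29% ± 0.0740 after tagmentation (SD, n = 3). In all 6 libraries 66 members stayed at 1 RPKM or more and 38 at 10 RPKM or more. Only Mrpl34 and Mrpl20 were at 100 RPKM or more throughout.

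Among the large-subunit proteins with a bacterial relative, Mrpl34, a small protein of the subunit's core, had the highest mean of the family, 338 RPKM. Its levels were 171, 488 and 356 RPKM after sonication, and 129, 489 and 397 RPKM after tagmentation. The libraries of number 1 were low for both methods, and the groups overlapped. Mrpl30 (mean 198 RPKM) had 101, 187 and 195 RPKM against 91.6, 261 and 354 RPKM. Mrpl20 (mean 195 RPKM) had 154, 200.5 and 145 RPKM against 134, 274 and 263 RPKM. Both also stood lowest after tagmentation in number 1. Mrpl22, whose bacterial relative lines the tunnel through which the new protein leaves, had 68.9, 171 and 126 RPKM against 55.9, 228 and 211 RPKM. Mrpl24 had 206, 119 and 76.8 RPKM against 162, 128 and 107 RPKM, highest in number 1 with both methods. Mrpl18, related to the bacterial protein that holds the 5S RNA, had 64.6, 109.7 and 137 RPKM against 69.9, 148 and 265 RPKM. Mrpl12, which forms the flexible stalk that recruits translation factors, had 127, 155 and 95.7 RPKM against 83.5, 167 and 108 RPKM.

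Of the large-subunit proteins found only in mitochondria, 3 were among the 10 highest members. Mrpl54 had 104, 195 and 156 RPKM after sonication and 66.8, 204 and 176 RPKM after tagmentation. Mrpl42 had 204, 99.9 and 84.1 RPKM against 221, 117 and 148 RPKM. Mrpl53 had 95.4, 139 and 149 RPKM against 70.1, 160.2 and 168 RPKM. Mrpl54 and Mrpl53 were lowest, and Mrpl42 highest, in number 1 with both methods. The median of the mean levels was 38.2 RPKM for 29 large-subunit genes with a bacterial relative and 49.0 RPKM for 18 mitochondria-specific ones. It was 39.9 RPKM for 16 small-subunit genes with a bacterial relative and 33.1 RPKM for 10 mitochondria-specific ones, and 3 members (Mrpl55, Mrps18a and Mrps36) were put in no class. Within each class the means spanned more than the gap between classes, from 4.04 to 338 RPKM in the first and from 2.00 to 114 RPKM in the last. The 114 RPKM belonged to Mrps18b, which was counted as mitochondria-specific although it is a copy related to a bacterial protein. The median of that class therefore includes a gene that does not strictly belong to it. The lowest member was Mrps25, with 2.19, 2.81 and 0.945 RPKM against 1.83, 3.46 and 0.770 RPKM. It overlaps the gene Nr2c2 and has a processed pseudogene, so its value is uncertain. The summed RPKM of Mrpl genes was 2.31 to 2.83 times that of Mrps genes in all 6 libraries. The sums cover 47 Mrpl and 29 Mrps genes, sorted by symbol, so part of the ratio is gene number. The medians of the mean levels were 42.6 and 35.9 RPKM. The colour map of all 76 members shows these levels by library.

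**Figure D1:**
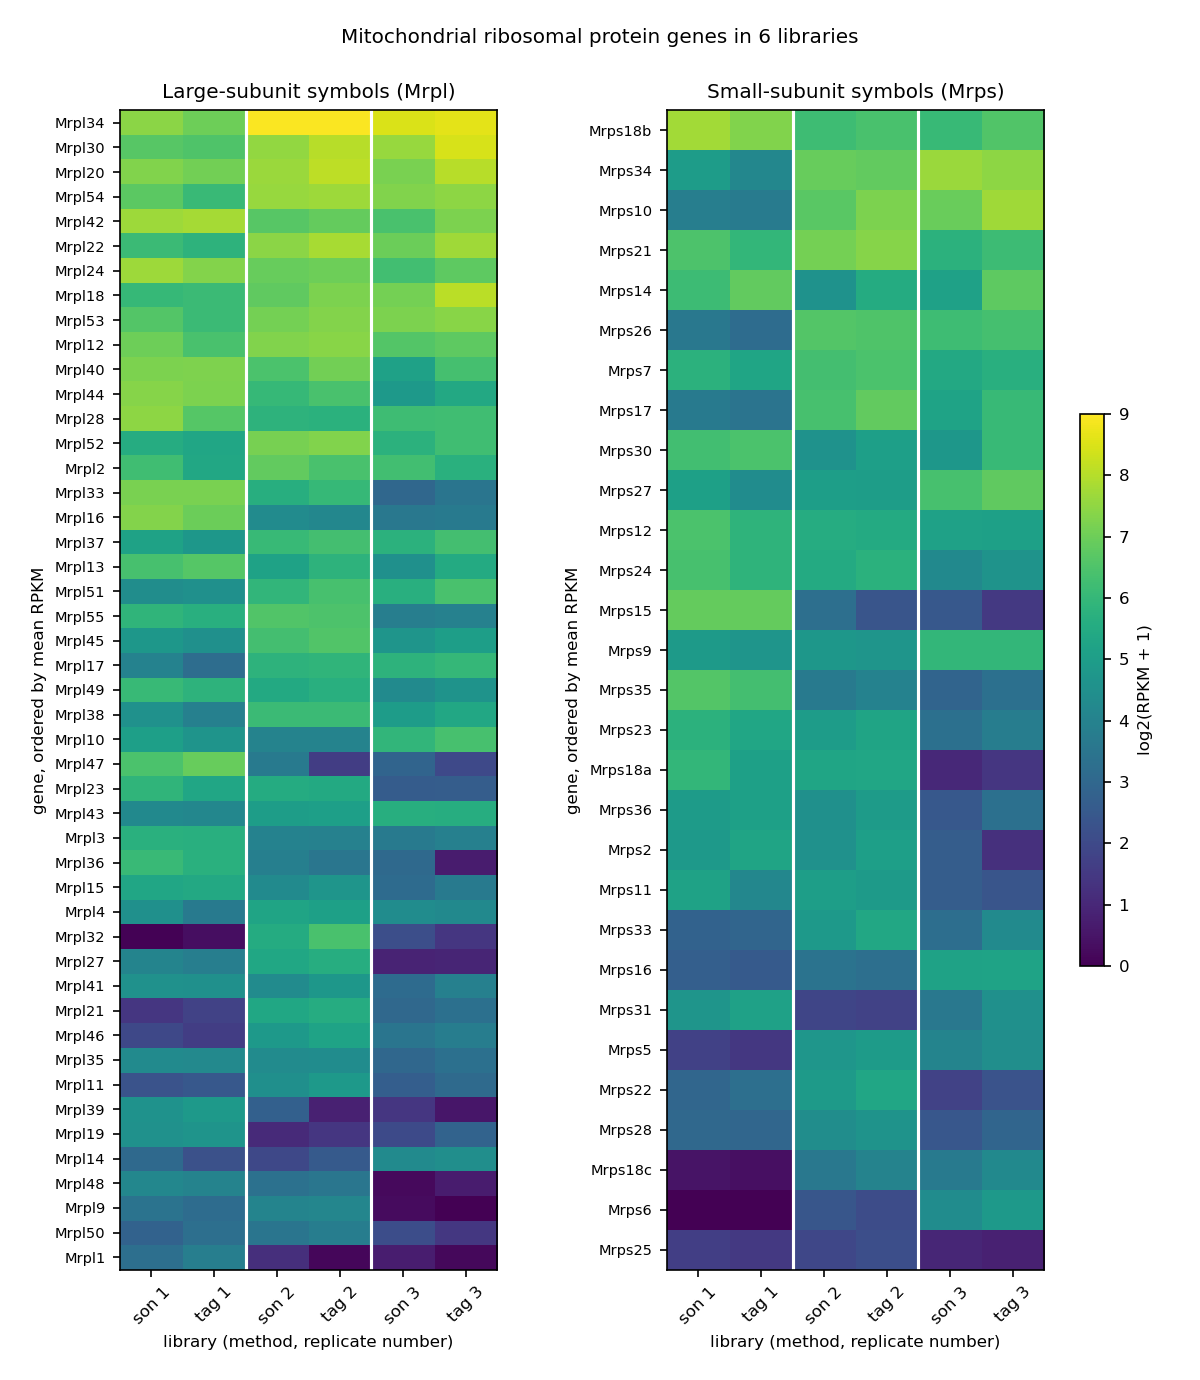
Level of each of the 76 members, as log2(RPKM + 1) by colour, in the 6 libraries (columns, in pairs of sonication and tagmentation for replicate numbers 1 to 3, parted by white lines). Rows are ordered by mean RPKM, and colours within a pair are alike while many rows change between pairs, as in Mrpl32, Mrps15 and Mrps6.

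Most members differed between replicate numbers, with both methods moving together. Limma's F test of the number, with method as a term, was run on log2(RPKM + 1) over 6327 genes at 1 RPKM or more in at least 3 libraries (Benjamini-Hochberg adjusted p under 0.05). It called 73 of the 76 members, or 96.1%, where the background over all genes tested was 88.1%. Number means were 4-fold or more apart on that scale in 37 members (48.7%), against a background of 58.5%. All 3704 tested genes with such a range were called, so the test adds nothing to this count. Since each number has 1 library per method, the test takes the method difference left within numbers as its error. As in the block fit below, limma took that error almost wholly from other genes, with 209.7 prior degrees of freedom. A very small p therefore does not measure how well a gene's own difference between numbers would repeat. Whether same-numbered libraries came from a common cDNA is not stated in the labels, and what a number stands for was not tested. Both endoderm markers in the table were highest in number 1, Sparc with 73.4, 12.3 and 11.7 RPKM against 74.1, 12.4 and 2.66 RPKM. Dab2 stood at 5.54, 0.107 and 0 RPKM against 9.29, 0 and 0 RPKM. Gata4, Gata6 and Sox17, also listed as endoderm markers, were not in the table. The pluripotency markers Sox2, Nanog, Dppa5a, Esrrb, Tdgf1 and Fgf4 were likewise highest in number 1 with both methods. Dppa5a had 1739, 796 and 455 RPKM against 1625, 998 and 670 RPKM, and Nanog was at 0 in number 3 with both methods. Pou5f1 and Utf1 were highest in number 2 with both methods. Zfp42 was lowest in number 1 with both methods, at 164, 258 and 214 RPKM against 206, 399 and 444 RPKM. Klf4 was lowest in number 1 (0.336 and 0.141 RPKM) and highest in number 3 (31.6 and 40.4 RPKM). Among fibroblast markers Thy1 was highest in number 1, with 12.1, 2.15 and 0.0611 RPKM against 9.55, 1.95 and 0.0831 RPKM. Col1a1 and Col3a1 were at 0 in number 1 with both methods. The part of these markers in the result was not tested. Without number 2 the count was 44 of 76, with 60.9% of all genes called, and without number 1 or 3 it was 55 or 51, with 72.0% or 69.9% of all genes called. All 76 members passed the filter on low values. However, 8 of them were under 1 RPKM in both libraries of a number and passed through the other numbers, where they were high: Mrpl32, Mrps6 and Mrps18c in number 1, and Mrpl1, Mrpl9, Mrpl27, Mrpl48 and Mrps25 in number 3. Their ranges are given as descriptions, without a p, and all of them but Mrps25 are among the 37 members above. Among the other 68 members 65 (95.6%) were called, against 83.1% of the 4339 genes tested that were not so low in any number.

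The widest range belonged to Mrpl32, a protein that is cut to its mature form by a protease of the inner membrane. Its levels were 0.0430, 46.0 and 3.45 RPKM after sonication, and 0.248, 85.4 and 1.69 RPKM after tagmentation. It was abundant in number 2 alone, a range of 5.80 in log2 units. The values of number 1 rest on 1 and 4 reads. Mrps6, a small-subunit protein with a bacterial relative, stood at 0 in number 1 with both methods, the sole member at 0 anywhere. In numbers 2 and 3 it stood at 4.37 and 19.6 RPKM after sonication and at 3.26 and 28.5 RPKM after tagmentation (range 4.63). At its GENCODE transcript length of 846 bases, 3 reads would have given 0.117 and 0.169 RPKM in the number 1 libraries, a limit that covers counting error only. Mrps6 overlaps Slc5a3, whose reads could not be parted from its own if strand was not used.

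Mrps15, whose bacterial relative binds the small-subunit RNA early in assembly, was high in number 1 alone. It had 117, 8.77 and 4.64 RPKM after sonication and 116, 4.19 and 1.78 RPKM after tagmentation (range 4.89, limma F test, adjusted p 1.69e-31). Mrpl27, related to a bacterial protein that reaches towards the site of peptide bond formation, was low in number 3 alone. It had 15.6, 39.9 and 0.872 RPKM against 13.3, 47.3 and 0.908 RPKM (range 4.55). A processed pseudogene, Gm6304, matches part of its transcript. The 3 genes of the Mrps18 family, related copies of a single bacterial protein, took different patterns. In the class medians above Mrps18c was counted with the bacterial relatives, Mrps18b with the mitochondria-specific genes and Mrps18a with neither. Mrps18a was also low in number 3, with 62.0, 38.5 and 1.04 RPKM against 33.7, 39.5 and 1.67 RPKM (range 4.32, adjusted p 1.92e-28). Without number 3 its range was 0.22 and it was not called (adjusted p 0.619). Mrps18c was low in number 1, with 0.395, 11.1 and 11.7 RPKM against 0.284, 15.5 and 18.2 RPKM. Mrps18b was highest in number 1, with 216, 72.1 and 65.7 RPKM against 156, 83.4 and 92.6 RPKM.

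The steadiest members were Mrpl12 (range 0.66, adjusted p 0.141), Mrpl20 (0.70, adjusted p 0.172) and Mrpl2 (0.81, adjusted p 0.0743), the 3 that limma's F test did not call. Mrpl2, whose bacterial relative lies beside the catalytic centre, had 74.7, 114 and 75.8 RPKM after sonication and 40.7, 83.7 and 51.1 RPKM after tagmentation. With quantile normalization limma called all 3 (adjusted p 0.0168, 0.0201 and 0.00991), and without number 1 it called Mrpl12 and Mrpl2 (0.00592 and 0.00845). Next were Mrps7, a small-subunit protein needed to build its head (range 0.85, adjusted p 0.0363), and Mrpl53 (0.95, adjusted p 0.0216). Mrps7 had 53.6, 78.1 and 42.6 RPKM against 38.2, 86.9 and 50.2 RPKM. Leaving out number 2 put the range of Mrps7 at 0.029, not called. Mrpl53 was not called when any number was left out, with a range of 0.087 without number 1. The plot of 8 members by number sets steady genes beside changing ones.

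**Figure D2:**
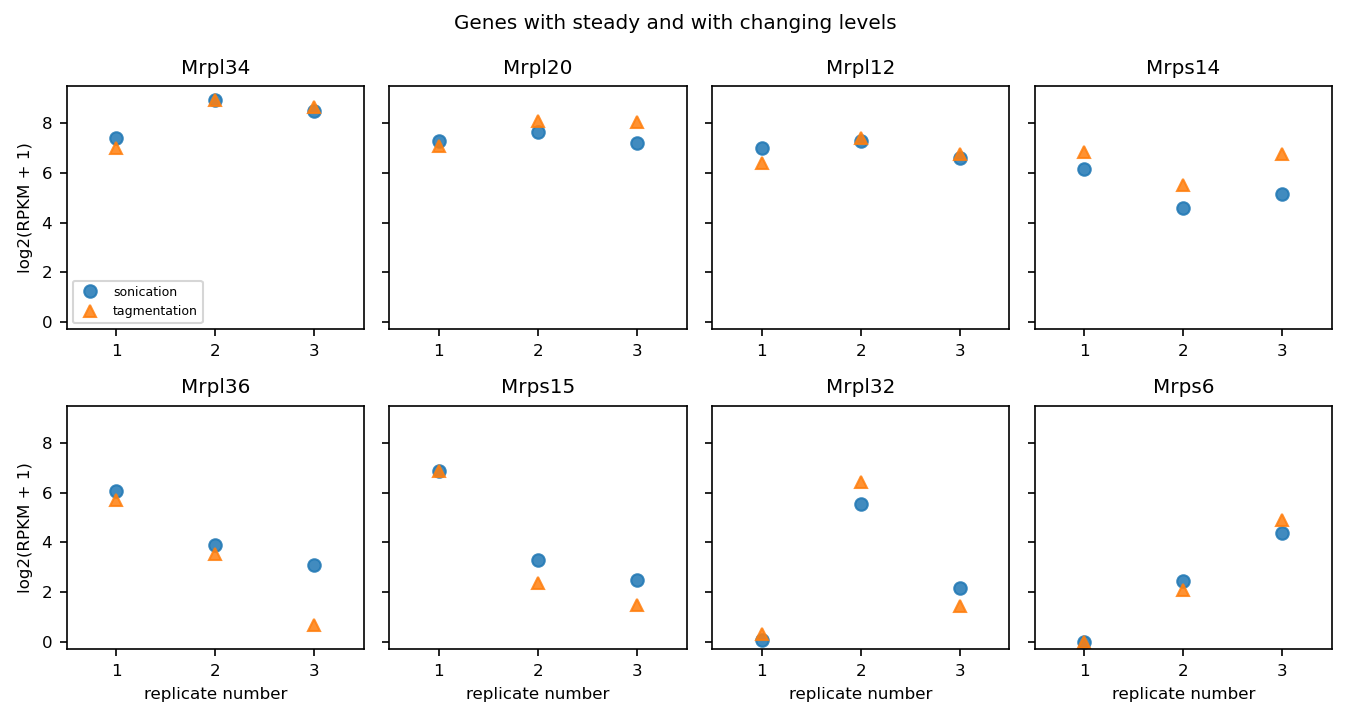
Level, as log2(RPKM + 1), of 8 members by replicate number, with circles for sonication and triangles for tagmentation, 1 library each. Mrpl20 and Mrpl12 stay within a narrow band, Mrps14 is higher after tagmentation in each number, and Mrpl36, Mrps15, Mrpl32 and Mrps6 change with the number.

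No number was high for the family as a whole. In both methods 28 members were highest in number 1, 28 in number 2 and 13 in number 3. The remaining 7 were highest in different numbers by method. The highest number was thus the same in both methods for 69 of 76 members (90.8%), against 84.6% of all genes tested. The full order of the 3 numbers was the same for 57 members (75.0%), against 72.6%. Mrpl10, which anchors the stalk, was highest in number 3, with 60.2 and 81.8 RPKM, while Mrpl12, the stalk protein itself, had its highest values in number 2. Across the 76 members the range was smaller at higher mean levels (Spearman's rho -0.50), and across all genes tested rho was -0.17. These are descriptions across genes that share the same 6 libraries.

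Cytosolic ribosomal proteins, which carry out the same task outside mitochondria, were more abundant. Their 79 genes had a median of the mean levels of 552 RPKM, against 39.9 RPKM for the mitochondrial family and 14.8 RPKM for all genes tested. Limma's F test of the number called 29 of these 79 genes (36.7%, background 88.1%), 7 of them with number means 4-fold or more apart (8.86%, background 58.5%). Their median range was 0.74 log2 units, against 1.99 for the mitochondrial family and 2.38 for all genes tested. The difference between the families was not tested. Levels differed between them as well, and the plot of range against level shows both measures.

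**Figure D3:**
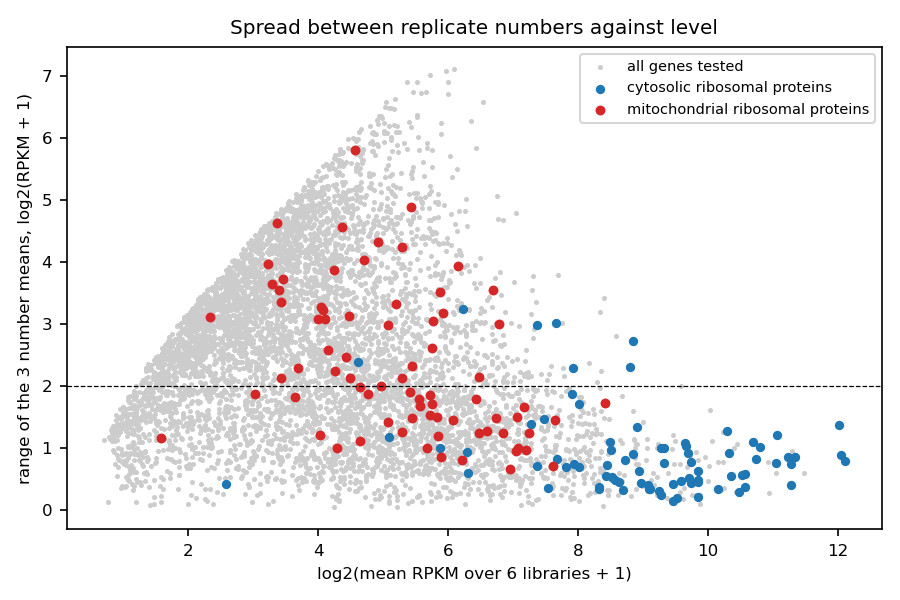
Range of the 3 number means on the log2(RPKM + 1) scale (vertical) against log2 of the mean RPKM over 6 libraries plus 1 (horizontal), for all genes tested in grey, cytosolic ribosomal proteins in blue and mitochondrial ribosomal proteins in red. The dashed line marks a 4-fold range, reached by 37 of the 76 red points and 7 of the 79 blue ones. The 37 include members under 1 RPKM in both libraries of a number.

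The study's own question was how the methods of making a library compare. Limma's test with method as the only term called none of the 76 members, where the background was 0% of 6327 genes. On simulated libraries with known changes this fit made no calls either, so its count says nothing about whether members differed. No member had an unadjusted p under 0.05, and the lowest was 0.120, for Mrps14. In no member did the 3 libraries of a method lie apart from those of the other, against a background of 2.4% of all genes tested (1.88% higher and 0.522% lower after tagmentation). With the replicate number as a block, limma called 2 members (2.63%), 1 higher and 1 lower, near the background of 3.29% of all genes tested (1.58% higher and 1.71% lower). In that fit limma took the spread of each gene almost wholly from other genes, with 209.7 prior degrees of freedom. On the simulated libraries the block fit recovered 3 of 100 genes changed 2-fold and 64 of 100 changed 4-fold. The simulated noise was drawn from each gene's own spread, unlike the pooled spread above, so these shares are only a rough guide. The block count says little about members that differed by about 2-fold. The median log2 fold change of the members, tagmentation over sonication, was 0.068, with 44 above 0 and 32 below, against 0.028 over all genes tested. It turned to -0.039 with median-ratio scaling and -0.067 with quantile normalization, so it has no settled direction. When any 1 library was left out, the median lay between -0.18 and 0.26. Those unblocked fits leave the numbers unbalanced, so the difference between numbers enters them.

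Mrps14, a protein of the small subunit's head, was the member called higher after tagmentation with the block. It had 71.0, 23.1 and 34.7 RPKM after sonication and 114, 45.2 and 108 RPKM after tagmentation. The groups overlapped, but tagmentation was higher in each of the 3 numbers. The log2 fold change was 1.08 (SE 0.30, limma with block, adjusted p 0.0212), and 1.08 (SE 0.63, adjusted p 1.00) without the block. Mrpl36, related to a small zinc-binding protein of bacterial ribosomes, was called lower with the block (-1.03, SE 0.30, adjusted p 0.0288). It had 66.7, 13.7 and 7.41 RPKM after sonication and 51.5, 10.5 and 0.607 RPKM after tagmentation. Most of that difference lay in number 3, where 126 reads stood against 19. Within numbers tagmentation was lower each time (-0.37, -0.35 and -2.39). Without tagmentation replicate 3 the unblocked value turned to 0.28, but that fit also mixes in the difference between numbers. Both block calls were lost without number 2 or number 3, with a correction for GC content, with a pseudocount of 0.1 and with no filter on low values. Under these settings 0% to 0.3% of all genes were called. The values themselves were 1.13 for Mrps14 and -1.14 for Mrpl36 with the GC correction, 1.15 and -1.38 without number 2, and 0.81 and -0.36 without number 3.

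The members next in order were not called in either fit. Mrps30, a large-subunit protein despite its name, had 75.7, 23.2 and 26.5 RPKM against 87.2, 32.7 and 66.7 RPKM (log2 fold change 0.66). Mrpl40 (0.62), Mrpl13 (0.62) and Mrps33 (0.57) followed, each higher after tagmentation in 3 of 3 numbers and by the most in number 3. On the other side, Mrpl2 (-0.62) was lower in 3 of 3 numbers. Mrpl47, which sits at the tunnel exit, had 87.1, 12.2 and 6.45 RPKM against 118, 2.09 and 2.98 RPKM (-0.85). Mrpl39 had 22.8, 5.75 and 1.70 RPKM against 28.5, 0.759 and 0.477 RPKM (-0.83). Mrps15, given above, had -0.65. In Mrpl47 and Mrpl39 tagmentation was higher in number 1 and lower in numbers 2 and 3. The values of Mrpl47, Mrps15 and Mrps33 turned sign when 1 library was left out of the unblocked fit. Such a fit leaves the numbers unbalanced, so it also mixes in the difference between numbers. Within numbers Mrps15 was lower after tagmentation each time (-0.011, -0.91 and -1.02), and Mrps33 higher (0.086, 0.59 and 1.05). Leaving out both libraries of number 1 raised the block count to 14 members (10 higher and 4 lower), with 16.6% of all genes called.

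**Figure D4:**
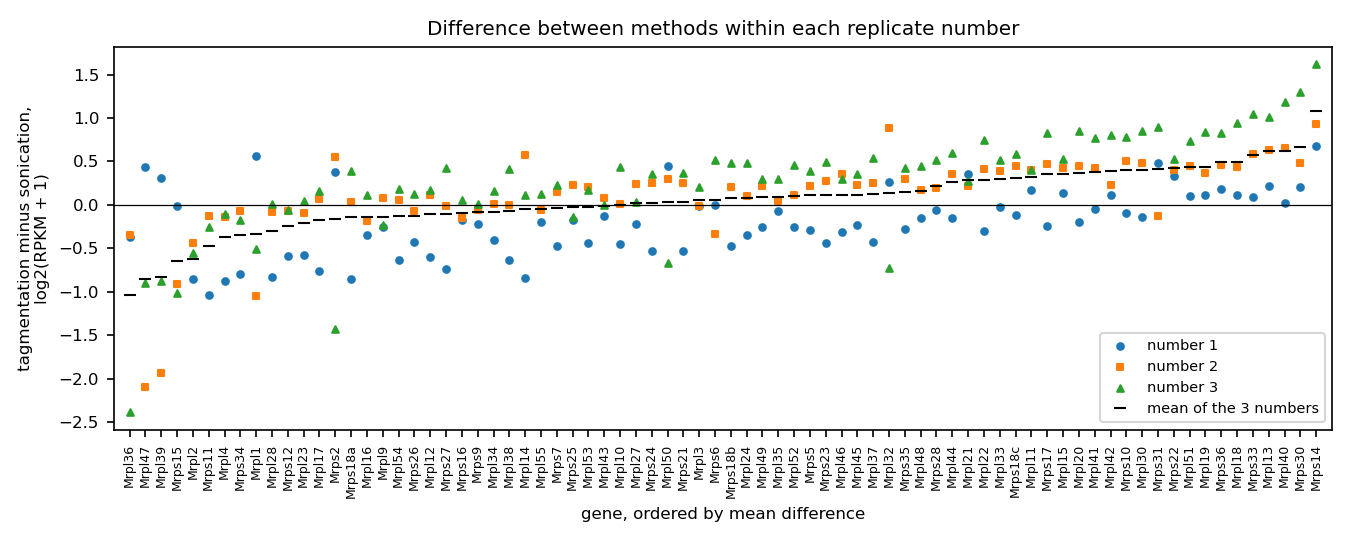
Tagmentation minus sonication, in log2(RPKM + 1), for each of the 76 members (horizontal, ordered by the mean difference), with 1 point per replicate number and a bar for their mean. Points of number 1 lie mostly below 0 and those of number 3 mostly above, a split that other scalings of the libraries nearly removed (37 of 76 above in number 1 and 33 in number 3 with median-ratio scaling), and the lowest points belong to Mrpl36 in number 3 and to Mrpl47 and Mrpl39 in number 2.

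Within a number the methods gave close values. The difference between them was under 2-fold on the log2(RPKM + 1) scale in 75, 73 and 68 of 76 members in numbers 1 to 3 (98.7%, 96.1% and 89.5%), against 96.4%, 93.7% and 81.5% of all genes tested. The median difference was -0.21 in number 1, with 54 members lower after tagmentation. It was 0.21 in number 2 and 0.36 in number 3, with 54 and 60 members higher. The medians over all genes tested were -0.072, 0.079 and 0.20. These signs rest on the scaling of the libraries. With median-ratio scaling the medians of the members were -0.00056, 0.058 and -0.067, with 37, 42 and 33 members higher, and with quantile normalization they were -0.098, 0.033 and -0.042, with 30, 42 and 34 higher. Both were tried after seeing the data. With 1 library per number and method there is no test of whether the methods differ by number.

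The members that differed by 2-fold or more within a number were few. In number 2, Mrpl47, Mrpl39 and Mrpl1 were lower after tagmentation by that much (3.95% of members, against 5.09% of all genes tested), and in number 3 Mrpl36, Mrps2 and Mrps15 were (3.95%, against 8.66%). Mrps11 was the one in number 1 (1.32%, against 2.80%). In number 3 Mrps2 went from 5.35 RPKM after sonication to 1.36 RPKM after tagmentation. The 3 members of number 2 and the 3 of number 3 were all highest in number 1, as were 83.5% of the 322 genes and 81.6% of the 548 genes lower by 2-fold or more in those numbers. Higher by 2-fold or more were 5 members in number 3, namely Mrpl13, Mrpl40, Mrps14, Mrps30 and Mrps33 (6.58%, against 9.85% of all genes tested), and 4 of the 5 were also highest in number 1 (34.5% of such genes overall). Of these 5, Mrps14 was the one that stayed past 2-fold with both median-ratio scaling and quantile normalization. These members were chosen after their values were seen. In the scatter plots the lower ones lie well under the diagonal.

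**Figure D5:**
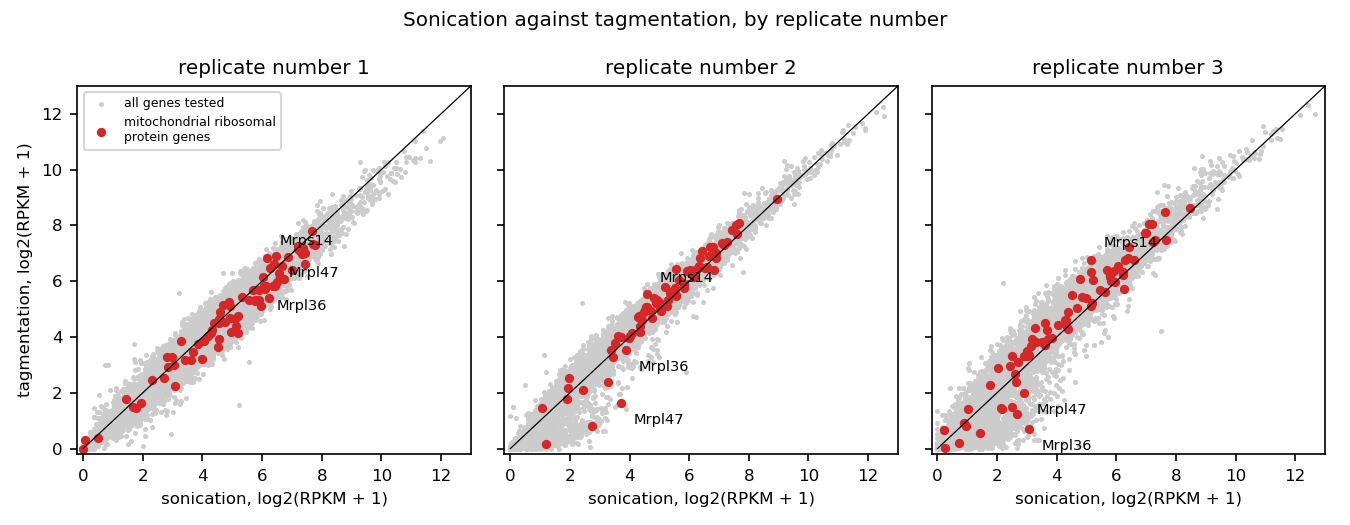
Level after tagmentation (vertical) against sonication (horizontal), both as log2(RPKM + 1), 1 panel per replicate number, with all genes tested in grey and the 76 members in red. The members follow the diagonal line of equal values, apart from points such as Mrpl47 in number 2 and Mrpl36 in number 3.

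Other genes of mitochondrial translation stood at lower levels, with a median of the mean levels of 15.3 RPKM among those tested. The list held 64 genes found in the table, 44 of which passed the filter. Their median log2 fold change was -0.16, with 16 above 0 and 28 below. Limma called none between methods, and 1 of the 44 with the block, against 3.29% of all genes tested. This was Ptcd3, a small-subunit protein without an Mrps symbol, with 38.2, 6.06 and 3.86 RPKM after sonication and 44.4, 1.17 and 0.844 RPKM after tagmentation (log2 fold change -0.96, SE 0.29, limma with block, adjusted p 0.0400). Its difference lay in numbers 2 and 3. The call was lost with the GC correction (-1.03) and without number 2 (-0.59) or number 3 (-0.74). The F test of the number called 38 of the 44 genes (86.4%, background 88.1%), 29 of them with number means 4-fold or more apart (65.9%, background 58.5%). Of these 44, Mtif3, Fars2, Iars2, Pars2, Vars2, Yars2, Rbfa, Ftsj2, Rg9mtd1, Ptcd2 and Taco1 were under 1 RPKM in both libraries of a number. They passed the filter through the other numbers, where they were high, and all were called. The background holds such genes as well, so these counts are descriptions.

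Mitoribosome proteins that the symbols do not cover were the most abundant of these. Aurkaip1 had 279.7, 450.4 and 124 RPKM against 175, 433 and 141 RPKM. Chchd1 had 240.0, 104 and 23.9 RPKM against 336, 192 and 56.0 RPKM, higher after tagmentation in 3 of 3 numbers but not called (block adjusted p 0.0871 in limma). Ict1, a release factor built into the large subunit, had a mean of 55.0 RPKM. Mrp63, a large-subunit protein, had the closest number means (range 0.11), with 41.2, 30.7 and 33.3 RPKM against 26.0, 32.4 and 35.1 RPKM. Its number 1 value was the highest after sonication and the lowest after tagmentation, so the number means hide a change within each method. Of the 7 genes of this class, 6 were at 1 RPKM or more in all 6 libraries.

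Among translation factors, the elongation factors Tsfm and Tufm had means of 105 and 43.7 RPKM, and the recycling factor Mrrf had 23.3 RPKM. Tufm was not called between numbers, while Gfm1, the translocation factor, was not tested because it reached 1 RPKM in number 1 alone, with 26.5 and 30.9 RPKM. Of 18 genes for mitochondrial tRNA synthetases, 6 were at 1 RPKM or more in all libraries. The highest were Gars and Kars, which also serve the cytosol, with means of 161 and 115 RPKM, and Sars2 with 19.7 RPKM. Fars2 had the widest range of the list (5.01), with 41.0 and 27.2 RPKM in number 1 and 1.24 RPKM or less elsewhere. Nars2 and Ears2 were listed at 0 in numbers 2 and 3 for both methods and stood at 20.6 and 27.2 RPKM and at 11.8 and 9.39 RPKM in number 1.

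Of 11 tested genes for assembly and RNA modification, 10 were called between numbers, and of 8 tested for RNA and transcription, 7 were, both near the background of 88.1%. Rbfa and Ftsj2 of the former and Rg9mtd1, Ptcd2 and Taco1 of the latter passed the filter only through their high numbers, as given above. Of the former, the highest were Mterfd2, Rpusd4 and Dhx30, with means of 35.5, 29.5 and 20.0 RPKM, and Mterfd2 was not called (adjusted p 0.739 in limma). Gtpbp5, a GTPase of large-subunit assembly, had 55.0 and 55.4 RPKM in number 3 and 1.66 RPKM or less elsewhere (range 4.71). Hsd17b10, a dehydrogenase that is also part of mitochondrial RNase P, was low in number 1 alone, with 3.59 and 2.77 RPKM (range 4.77). Lrpprc, which keeps mitochondrial messenger RNAs stable, was high in number 1 alone, with 61.5 and 54.2 RPKM. Tfam, which packs and transcribes mitochondrial DNA, was not called between numbers (range 0.44, adjusted p 0.446 in limma). It had 17.1, 14.6 and 15.1 RPKM against 20.9, 21.9 and 39.8 RPKM, the one tested gene of the list whose groups did not overlap (background 2.4%), and it was not called between methods in either fit.

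Depth and identity of the libraries bear on all of these values. The libraries held 18852822 to 34681566 alignments, and for a transcript of 1302 bases, the members' median length, a single read gave 0.0221 to 0.0407 RPKM. The median value of a member was about 1307 reads, and 7 of the 456 values rested on fewer than 10. Markers of pluripotent stem cells were present, 8 of 10 at 1 RPKM or more in all libraries and summed at 1419 to 2859 RPKM after sonication and 1773 to 2531 RPKM after tagmentation. The 5 fibroblast markers in the table summed to 121 to 187 and 136 to 195 RPKM, nearly all of it Vim, and Col1a1, Col1a2 and Col3a1 were at 0 in some libraries. The 2 endoderm markers in the table summed to 11.7 to 79.0 and 2.66 to 83.4 RPKM, with Dab2 at 0 in some libraries. The 4 trophoblast markers summed to 347 to 437 and 249.9 to 420.1 RPKM, nearly all of it Krt8 and Krt18, with Cdx2 at 0 in some. Of the 76 members, 24 overlap another gene in the RefSeq annotation. Counted separately, with some genes in both counts, 17 share at least 30% of a transcript at 95% identity or more with another annotated gene, 11 of them with a processed pseudogene. These include Mrpl22, Mrpl42, Mrps10 and Mrps18b, whose values are uncertain to that extent. The same holds for other members among the 10 highest. Mrpl53 matches Gm42688 at 100% identity over 100% of its transcript, Mrpl24 shares 33.9% of its transcript with Rrnad1, and Mrpl18 overlaps Tcp1.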

How the data were processed

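The deposited values are RPKM computed by the authors, with 1 column per library and alignment totals per the file headers. The submitters' processing notes name CASAVA 1.7.0, Partek and the build mm9 with no roles; for aligner, annotation, strand use and multiple matches nothing is given in the sources used here. Members and lists were chosen with earlier results of these data known. The 6327 genes that reached 1 RPKM in 3 or more of the 6 libraries were tested as log2(RPKM + 1), which understates changes of genes with low values, with limma 3.58.1 in R 4.3.3 (eBayes with trend, two-sided, Benjamini-Hochberg over all genes tested, threshold 0.05). It was tested on simulated data, where the F test of the number recovered 82 of 200 genes changed 4-fold. Only those 200 of 6327 genes were changed there, so the adjustment was stricter than in the data, where 88.1% were called. Simulated noise was drawn from each gene's own spread. The 82 of 200 is therefore not the power of the test in these data. Here all 3704 tested genes with number means 4-fold or more apart were called. Libraries were grouped by their labels. Same-numbered libraries deviated together from their group means (r 0.952, 0.969 and 0.934 across genes), so the numbers were taken as pairs and the block is given beside each fit without it.

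Genes were named by a rule: members called in either fit, the 10 highest means, the 5 highest and 5 lowest fold changes, the 5 widest and 5 narrowest ranges between numbers, members listed at 0 in both methods, and, in the list of other mitochondrial translation genes, the called, the 3 highest per class and the 3 widest. Others are examples chosen after their values were seen. Reads were recovered from steps of the RPKM values for 64 members (for 4 when the totals were moved by 1 library). For the rest and for medians they are estimates from GENCODE M21 transcript lengths. GC content came from those transcripts, near-copies from blastn 2.17.0, and promoters from RefSeq (GRCm38.p6). The alternatives were pseudocounts, filters, scalings, the block, a GC correction and leaving out libraries.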

Additional observations from a re-analysis of the deposited data

How the results depend on the processing

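With the replicate block the count of members called between methods went from 0 to 2, and to 14 in the block without replicate 1 (16.6% of all genes called), 0 without replicate 2 (0.158%) and 0 without replicate 3 (0.3%). Among block settings added after seeing the data it was 1 with a pseudocount of 5 (2.66% of all genes called), 3 with median-ratio scaling (8.8%), 2 with quantile normalization (7.52%), 0 with a pseudocount of 0.1 (0.126%) and 0 with no filter (0%). It was also 0 with the block and GC correction (0%). For the other mitochondrial translation genes the count was 1 with the block, and 5, 0 and 0 in the block without replicates 1, 2 and 3. All unblocked settings gave 0 members in limma. The count of members that differed between numbers was 73 (88.1% of all genes called), and 55, 44 and 51 without replicates 1, 2 and 3 (72.0%, 60.9% and 69.9%). The difference in members at 1 RPKM or more, -1.33 per library, lay between -2.5 and 0.167 without each library and turned to 0.167 without tagmentation replicate 3. Without each library in turn, log2 fold changes turned for Mrpl36 (-2.24 to 0.28, above 0 without tagmentation replicate 3), Mrps33 (-0.026 to 1.22, below 0 without tagmentation replicate 2), Mrpl47 (-2.55 to 0.20, above 0 without sonication replicate 1 and, at 0.085, without tagmentation replicate 2) and Mrps15 (-2.29 to 0.68, above 0 without sonication replicate 1 and, at 0.40, without tagmentation replicate 3). Leaving out 1 library without the block unbalances the numbers, so the difference between numbers enters all of these single-library values. They do not show by themselves that a direction is unstable. The causes were not tested. Depth limits the few values under 10 reads.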

Other observations

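The members' transcripts were short, with a median of 1302 bases against 2652 bases over all genes tested, and of ordinary composition, with a median GC content of 50.5% against 51.2%. Across the 76 members Spearman's rho between GC content and the log2 fold change between methods was -0.40, and across 6265 genes tested it was -0.29. The genes share the same 6 libraries, so these values are descriptions. The 5 most abundant members held 22.3%, 27.4% and 31.9% of the family's summed RPKM after sonication, and 22.5%, 27.7% and 32.8% after tagmentation. The leading member was Mrps18b or Mrpl42 in number 1 and Mrpl34 in the other 4 libraries.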
